A study of Mus musculus with 9 samples.

Results

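The 9 genes Fabp2, Fabp1, Apoa4, Apoa1, Apoc3, Prap1, Cdx1, Cdx2 and Vil1, brought together as genes of the intestinal epithelium, were read on 9 Affymetrix arrays of the mouse urogenital sinus. They were chosen by symbol, with earlier results of these arrays known, from 18194 genes that have a probe set annotated to 1 symbol alone. All 16 such probe sets of the 9 genes were read on every array. The urogenital sinus is the embryonic tissue beside the hindgut from which the prostate buds in males and the lower vagina forms in females. Every array carried RNA of C57BL/6 mice, from tissue freed of bladder, urethra and the genital ducts in males and females alike. The BPA arrays came from offspring of dams given bisphenol A, a weakly estrogenic plastics monomer, at 20 µg/kg/day. The DES arrays came from offspring of dams given diethylstilbestrol, a synthetic estrogen, at 0.2 µg/kg/day, and the Control arrays from dams given the corn oil vehicle. Dosing ran from embryonic day 13 (E13) to E16, and tissue was taken at E17, E18 and the day of birth (P0), with 1 array for each agent and age. The doses of BPA and DES differ, so each was set against Control only. The labels give no number of animals or litters per array, and fewer cells of a type cannot be told apart from less RNA per cell.

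Enterocytes, the absorptive cells of the gut, carry fatty acids through their cytoplasm on small fatty acid-binding proteins and export fat in lipoproteins coated with apolipoproteins. Fabp2 encodes the intestinal and Fabp1 the liver-type fatty acid-binding protein. Apoa4 and Apoa1 encode coat proteins of gut lipoproteins, and Apoc3 encodes an apolipoprotein that slows the clearance of triglyceride-rich particles. Fabp1, Apoa1 and Apoc3 are also made by hepatocytes, and the yolk sac makes apolipoproteins as well. Prap1 encodes a secreted proline-rich acidic protein made in the gut and in the pregnant uterus. Cdx1 and Cdx2 are the homeodomain factors that set intestinal identity, and Vil1 encodes villin, the actin bundler of microvilli.

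The readings did not settle the label of intestinal epithelium. Signals are array brightness after quantile normalization, which gives all arrays the same distribution, and 56.4% of all readings were under 100. Fabp2, Fabp1, Apoa4, Apoa1, Apoc3 and Prap1 reached 100 on at least 1 array and spanned at least 4-fold over the arrays, whereas Cdx1, Cdx2 and Vil1 stayed under 100 on all 9. Of 55 gut genes read outside the 9, 22 reached 100 on any array, where 10887 of all 18194 genes did so on BPA E17 alone. Those at 100 or more on every array included 3 of 10 transcription factors, 2 of 11 lipid uptake genes and 2 of 10 secretory cell genes, but 0 of 18 brush border and adhesion genes. Gata6, a factor of several endodermal and mesodermal tissues, read 527 to 803. Cdh17, the cadherin of intestinal epithelium, read 5.53 to 24.5, and Muc2, the goblet cell mucin, read 40.1 to 65.7. Of 6 colon genes, only Hoxd13, which the urogenital sinus also expresses, reached 100 on any array (1080 to 1596). Markers of the urogenital sinus, by contrast, read at least 100 on all arrays for 7 of 7 genes, with Shh at 1136 to 1949. The genes are therefore called by name below, and Fabp2, Fabp1, Apoa4, Apoa1, Apoc3 and Prap1 together the 6 brighter genes.

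The BPA arrays stood apart from the rest in other genes. The BPA P0 array had the lowest mean signal as deposited (157, where the highest array had 277) and a summed signal of 6 gonad genes of 3245, against 302 to 418 on every other array. Its summed signal of 5 genes of cornified epithelium was 18227, against 937 to 7241 elsewhere. On the BPA E18 array Alas2, the heme enzyme of red cell precursors, read 1997, against 297 to 928 elsewhere. On the BPA E17 array the heat shock gene Hspa1a read 1364, against 227 to 350 elsewhere, and all 5 of 5 uroplakin genes of the urothelium had their highest reading there. The part of these differences in the values below was not tested.

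The sequences just upstream of the genes are shown because several of the genes varied together over the arrays, and the factors known to drive them in the gut bind short, recognisable motifs. RefSeq promoters of build GRCm38.p6 were matched for 7 of the 9 genes. Each sequence below is the 250 bases before the annotated start, on the plus strand, and capitals mark the motifs found. Fabp2 lies at chr3:122894822-122895071, Fabp1 at chr6:71199629-71199878, Apoa4 at chr9:46240594-46240843, Apoa1 at chr9:46228380-46228629 and Prap1 at chr7:140093146-140093395.
Fabp2: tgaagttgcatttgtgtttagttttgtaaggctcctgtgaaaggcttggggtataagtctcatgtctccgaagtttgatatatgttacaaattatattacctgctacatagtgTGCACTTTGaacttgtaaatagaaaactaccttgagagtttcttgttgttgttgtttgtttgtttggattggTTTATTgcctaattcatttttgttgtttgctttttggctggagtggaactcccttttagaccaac
Fabp1: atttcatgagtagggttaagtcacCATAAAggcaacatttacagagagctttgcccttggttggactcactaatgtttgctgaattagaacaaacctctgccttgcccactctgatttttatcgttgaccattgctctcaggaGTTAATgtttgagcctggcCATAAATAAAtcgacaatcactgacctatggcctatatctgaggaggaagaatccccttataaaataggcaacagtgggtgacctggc
Apoa4: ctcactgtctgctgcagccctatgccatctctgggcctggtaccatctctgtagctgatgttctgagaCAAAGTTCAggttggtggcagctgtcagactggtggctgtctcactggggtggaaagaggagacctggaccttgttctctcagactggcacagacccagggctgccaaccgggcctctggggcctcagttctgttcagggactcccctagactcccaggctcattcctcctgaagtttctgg
Apoa1: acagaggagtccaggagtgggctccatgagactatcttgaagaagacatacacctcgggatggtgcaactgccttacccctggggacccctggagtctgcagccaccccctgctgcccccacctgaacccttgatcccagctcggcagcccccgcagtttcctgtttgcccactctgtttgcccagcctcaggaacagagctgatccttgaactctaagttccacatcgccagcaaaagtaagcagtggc
Prap1: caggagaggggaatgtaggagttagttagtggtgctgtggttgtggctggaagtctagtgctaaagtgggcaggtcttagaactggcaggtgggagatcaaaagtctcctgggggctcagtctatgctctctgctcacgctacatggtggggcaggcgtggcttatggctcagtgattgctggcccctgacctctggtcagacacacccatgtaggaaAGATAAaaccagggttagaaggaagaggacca

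Motifs were searched on both strands, and each is given with its share among 32851 promoters of the same length. The HNF4-type motif CAAAGNNCA occurred in 5.49% of all promoters and in those of Fabp2 (bases -137 to -129, opposite strand) and Apoa4 (bases -182 to -174). The CDX-type motif TTTATG, present in 10.8% of promoters, occurred at 2 places in Fabp1, at -226 to -221 and -88 to -83, both on the opposite strand. A second CDX-type motif, TTTATT, present in 18.1% of promoters, lay in Fabp2 at -65 to -60 and in Fabp1 at -84 to -79 (opposite strand), where it overlaps the TTTATG match. The HNF1-type motif GTTAAT (6.43% of promoters) was found in Fabp1 at -107 to -102 and in Cdx2 at -30 to -25, and the GATA-type motif AGATAA (9.99% of promoters) in Prap1 at -32 to -27. The Apoa1 sequence held none of these letters, and a match is a description of the sequence only. Apoa1, Apoc3, Apoa4 and Apoa5 lie side by side on mouse chromosome 9, in that order.

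The intracellular carriers were bright on 1 array. Fabp2 read 378, 2.15 and 54.4 on the BPA arrays at E17, E18 and P0, 19.8, 19.7 and 23.8 on the DES arrays, and 71.0, 2.87 and 15.5 on the Control arrays. The BPA E17 reading was thus 5.32 times the next highest, Control E17, and the readings of the 3 agents overlapped. The lowest Fabp2 readings were both at E18, on the BPA and the Control array. Fabp1 read 180, 25.5 and 26.3 on the BPA arrays, 21.1, 38.4 and 14.0 on the DES arrays, and 46.3, 18.4 and 29.7 on the Control arrays by its brighter probe set. Here too the BPA E17 array stood highest, at 3.88 times Control E17, and the other readings overlapped between agents. The second Fabp1 probe set read 185, 17.5 and 21.7 on the BPA arrays, and 15.8, 10.1 and 5.48 on the DES arrays. On the Control arrays it read 44.4, 0.538 and 4.85. Its BPA E17 reading was 4.17 times the next highest array, also Control E17, and its BPA and Control readings overlapped.

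**Figure D1:**
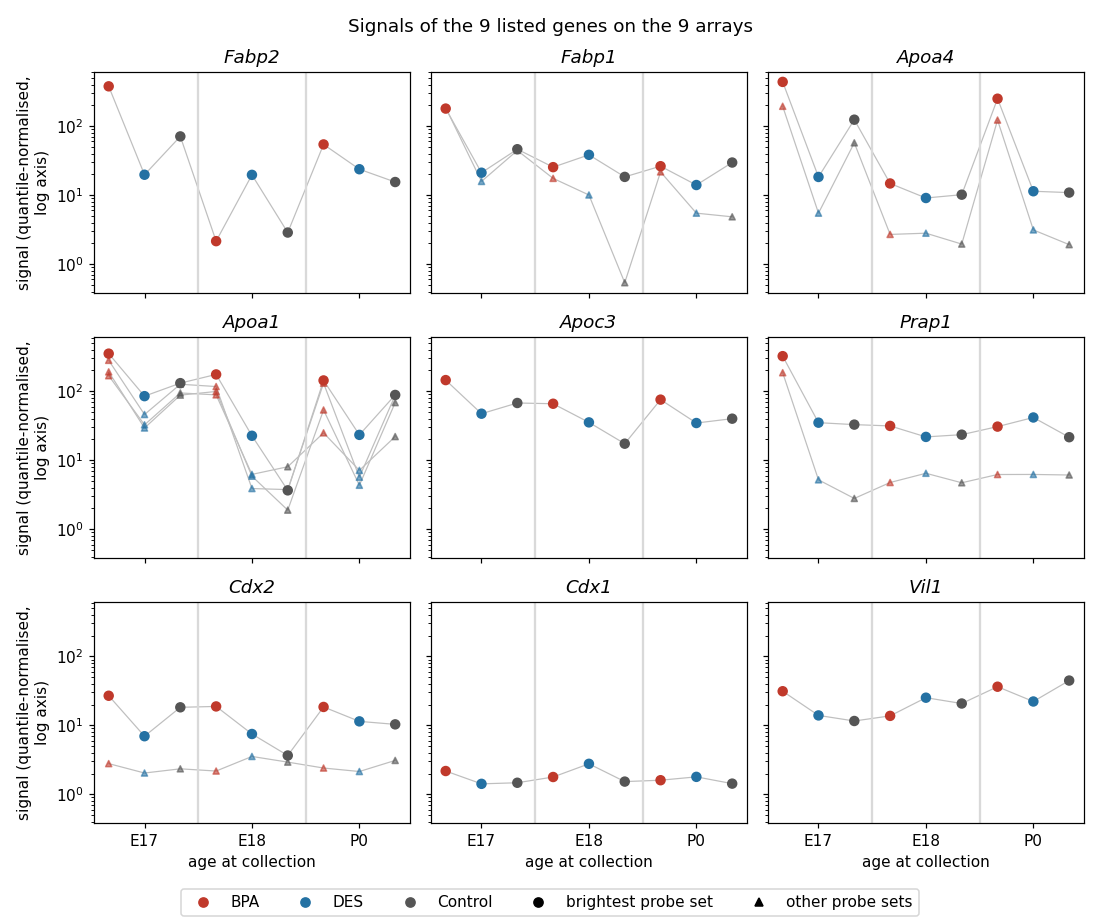
Quantile-normalised signals (log axis) of the 9 listed genes on the 9 arrays by age at collection, with BPA left of DES and Control; circles are the brightest probe set of a gene and triangles its others. The BPA E17 array is the highest for 7 of the 9 genes, while Cdx1, Cdx2 and Vil1 lie under 100 on every array.

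Among the apolipoproteins, Apoa4 was bright on 3 arrays. It read 438, 14.8 and 250.1 on the BPA arrays at E17, E18 and P0, 18.4, 9.09 and 11.4 on the DES arrays, and 124, 10.2 and 10.9 on the Control arrays. BPA E17, BPA P0 and Control E17 formed the bright arrays, and the remaining 6, among them 2 of the 3 Control arrays and all DES arrays, did not exceed 18.4. The dimmer Apoa4 probe set gave the same 3 arrays, with 194 and 122.5 on BPA E17 and P0 and 57.3 on Control E17, against 1.92 to 5.48 elsewhere.

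Apoa1, the main protein of high-density lipoprotein, was bright on more arrays than Apoa4. It read 351, 175 and 143 on the BPA arrays, 84.9, 22.6 and 23.3 on the DES arrays, and 131, 3.66 and 88.4 on the Control arrays. Every BPA reading was above every DES and Control reading, and Control E18 was the lowest array. In the intensities as deposited the groups overlapped, with 92.0 on BPA P0, 94.2 on DES E17 and 147 on Control E17. BPA E17 read 2.001 times the next highest array, BPA E18. The other Apoa1 probe sets did not keep the BPA and Control arrays apart: 1 of them read 191, 99.2 and 53.5 under BPA, against 87.9, 1.89 and 68.4 under vehicle. Apoc3 read 145, 65.9 and 75.6 on the BPA arrays, 47.3, 35.4 and 34.6 on the DES arrays, and 67.6, 17.4 and 40.05 on the Control arrays. Its order of arrays was much like that of Apoa1, with BPA E17 highest and Control E18 lowest, over a narrower span, and the BPA and Control readings overlapped.

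Prap1 was the gene most restricted to a single array. It read 323, 31.4 and 30.7 on the BPA arrays at E17, E18 and P0, 35.0, 21.8 and 41.7 on the DES arrays, and 32.8, 23.5 and 21.6 on the Control arrays. The arrays other than BPA E17 lay close together, and BPA E17 read 7.74 times the highest of them, DES P0. The second Prap1 probe set, whose other readings were near the dimmest of the array (2.80 to 6.47), read 186 on BPA E17.

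The intestinal regulators and villin stayed dim. Cdx1 read 1.42 to 2.77 over the 9 arrays, above only 0.896% of all probe sets by its mean log2 level. Cdx2 read 26.8, 18.8 and 18.5 on the BPA arrays, 6.96, 7.49 and 11.4 on the DES arrays, and 18.3, 3.65 and 10.3 on the Control arrays by its brighter probe set. Each BPA reading of Cdx2 was above every DES and Control reading, the nearest being 18.5 on BPA P0 and 18.3 on Control E17. With each array scaled to a common trimmed mean, BPA E18 read 18.6 and Control E17 20.1, so this separation depended on the scaling. The other Cdx2 probe set read 2.04 to 3.54 throughout. Vil1 read 31.2, 13.7 and 36.3 on the BPA arrays, 13.9, 25.2 and 22.2 on the DES arrays, and 11.6, 20.7 and 44.6 on the Control arrays. Vil1 was the brightest on Control P0, where none of the 6 brighter genes peaked.

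Counted by gene, 7 of the 9 genes and 13 of their 16 probe sets had their highest reading on BPA E17, which was the highest array for 9.04% of the 18194 genes. The exceptions were Cdx1 with the dimmer Cdx2 probe set, highest on DES E18, and Vil1. Of all genes, 2 read at least 100 on BPA E17 and at least 4 times more than on each other array, and these were Fabp2 and Prap1. By the same measure BPA P0 had 40 genes, none of them listed here, and DES E17 had 1, Xist, the RNA of the inactive X chromosome. The labels do not give the sexes on each array, and the part of sex in the values of the listed genes was not tested. Ranked by the ratio of BPA E17 to the highest other array among 10887 genes reading at least 100 on it, Prap1 was at rank 1, Fabp2 at 2, Fabp1 at 4, Apoa1 at 7, Apoc3 at 8 and Apoa4 at 13. The genes between them included heat shock genes, with Hspa1a at rank 3 (3.90 times), and the urea cycle enzyme gene Cps1, active in liver and gut, was at rank 9 (1.85 times). The genes were chosen with such readings known, so these ranks describe the choice and support nothing further.

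How far the genes varied together depended on that array. Over the 9 arrays, which share the tissue and the scaling, Pearson's r on the log2 scale between the 6 brighter genes ranged from 0.56 to 0.94 with a median of 0.76 over 15 pairs. Spearman's rho ranged from -0.02 to 0.92 with a median of 0.62. Without BPA E17, r ranged from -0.40 to 0.95 with a median of 0.43 (8 arrays). With the mean of each age and agent removed, it ranged from -0.43 to 0.87 with a median of 0.42. With so few arrays these coefficients have little precision and are given as a description.

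The pairs differed in how much r moved without BPA E17, a leaving-out chosen after the values were seen. Apoa1 and Apoc3, neighbours on chromosome 9, had r = 0.94 over the 9 arrays (rho = 0.92) and 0.95 without BPA E17. Fabp2 and Apoa4, one a cytoplasmic carrier and the other a lipoprotein coat protein, had 0.86 (rho = 0.73) and 0.75 without it. Apoa4 and Apoc3 had 0.84 (rho = 0.90) and 0.71. A positive r on the remaining 8 arrays was not particular to these 3 pairs: among the 6 brighter genes only Fabp1 with Prap1 did not keep one. Fabp2 and Fabp1 had 0.81 over the 9 arrays (rho = 0.50) and 0.44 without BPA E17. Fabp2 and Prap1 had 0.80 (rho = 0.62) and 0.31, and Fabp1 and Prap1 had 0.82 (rho = -0.02) and -0.40. The high r of Fabp1 with Prap1 was thus not kept without the BPA E17 array. Removing the mean of each age and agent sorted the pairs differently. In that setting Fabp2 with Fabp1 had 0.87, Fabp2 with Apoa4 0.80, Apoa1 with Apoc3 0.73, Fabp1 with Prap1 0.69 and Fabp2 with Prap1 0.62, whereas Apoa4 with Apoc3 had 0.18. Over the 9 arrays as they stand, Cdx2 varied with Apoc3 (0.93) and Apoa1 (0.88) although its readings were dim. In the same setting r of Vil1 with the 6 brighter genes was 0.06 to 0.26 and that of Cdx1 was -0.06 to 0.42. With age and agent means removed, r with the 6 was -0.05 to 0.79 for Vil1 and 0.15 to 0.96 for Cdx1. The medians were then 0.42 and 0.67, so the low values of these dim genes depended on the setting. Between probe sets of 1 gene, r was 1.00 for Apoa4, 0.87 to 0.98 for Apoa1, 0.96 for Prap1, 0.88 for Fabp1 and -0.29 for Cdx2.

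**Figure D2:**
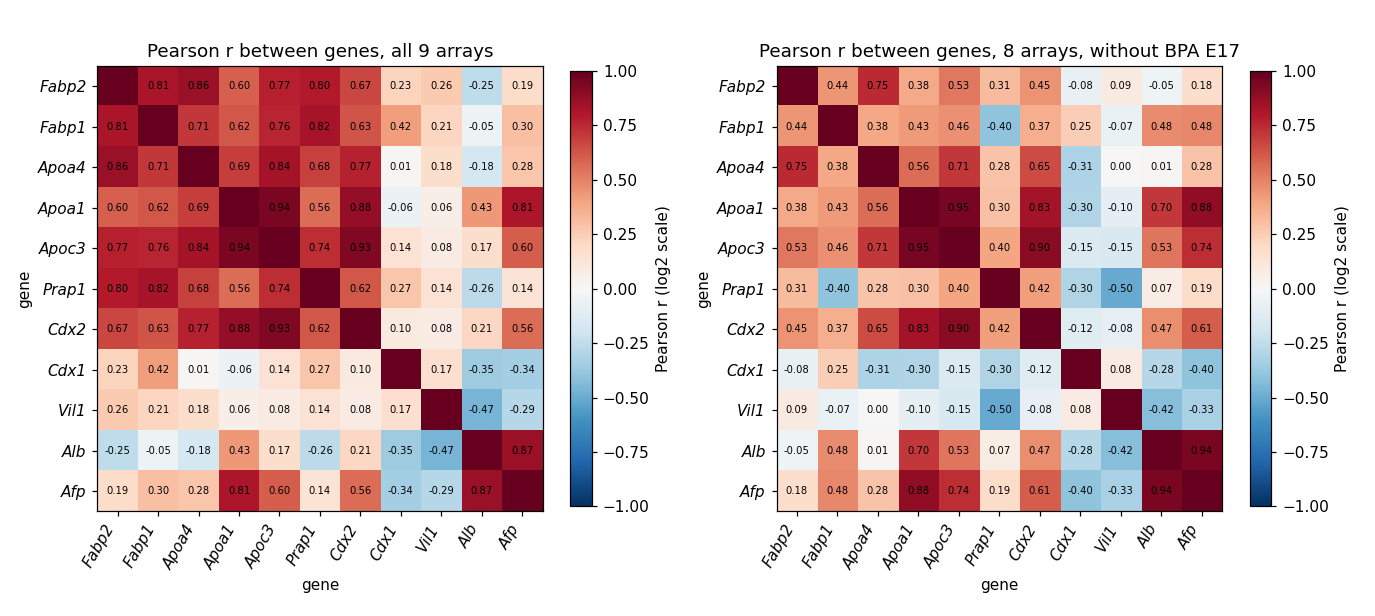
Pearson's r on the log2 scale between the listed genes and reference genes, over all 9 arrays and without the BPA E17 array (8 arrays). Apoa1 with Apoc3 keeps its value (0.94 and 0.95), while Fabp1 with Prap1 moves to -0.40 without that array.

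Apoa1, Apoc3 and Fabp1 are also hepatocyte genes, so the 6 brighter genes were set beside liver genes on the same arrays. Alb, serum albumin, read 43.0, 802 and 35.5 on the BPA arrays at E17, E18 and P0, 244, 62.5 and 40.6 on the DES arrays, and 578, 28.7 and 364 on the Control arrays. Afp, alpha-fetoprotein of fetal liver and yolk sac, read 213, 1014 and 79.4 on the BPA arrays, 462, 21.5 and 15.05 on the DES arrays, and 978, 3.44 and 442 on the Control arrays. Alb and Afp were thus both bright on BPA E18, Control E17, Control P0 and DES E17. Of the 9 liver genes read, 7 reached 100 on some array and 0 on all arrays, and 5 were highest on BPA E18. Their summed signal was 305 to 2757 on the BPA arrays, 287 to 1259 on the DES arrays and 194 to 2413 on the Control arrays.

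The listed genes followed these liver genes to unequal degrees. Fabp2 and Apoa4 read higher on BPA P0 than on BPA E18, the reverse of Alb. Their r to Alb was -0.25 for Fabp2 and -0.18 for Apoa4 over the 9 arrays, but -0.046 for Fabp2 and 0.011 for Apoa4 without BPA E17. Without the 2 arrays farthest from each gene's median it was 0.38 for Fabp2 and 0.53 for Apoa4. With Afp, r was 0.19 for Fabp2 and 0.28 for Apoa4. With the mean of each age and agent removed, r to Alb was -0.62 for Fabp2 and -0.68 for Apoa4. In that setting r to Afp was -0.58 for Fabp2 and -0.67 for Apoa4. The sign thus depended on the setting, and no firm opposite course to the liver genes was shown. Apoa1 was bright on the arrays of both kinds: its r was 0.81 with Afp (0.88 without BPA E17) and 0.43 with Alb (0.70 without BPA E17). With age and agent means removed these were 0.91 with Afp and 0.86 with Alb. For Apoc3, r was 0.60 with Afp and 0.17 with Alb, 0.74 and 0.53 without BPA E17, and 0.41 and 0.37 with means removed. Fabp1 had 0.30 with Afp and -0.05 with Alb, 0.48 with each without BPA E17, and -0.27 and -0.34 with means removed. Prap1 had 0.14 with Afp and -0.26 with Alb, 0.19 and 0.07 without BPA E17, and -0.58 with each with means removed. On BPA E17, where the summed signal of the 9 listed genes was the highest (1874), Alb read 43.0. On BPA E18, where Alb was the highest, Apoa1 read 175 and Apoa4 14.8. The Control E18 array was the lowest in both respects, with sums of 102 for the listed genes and 194 for the liver genes. The part of other tissues' RNA in the Apoa1 values was not tested.

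**Figure D3:**
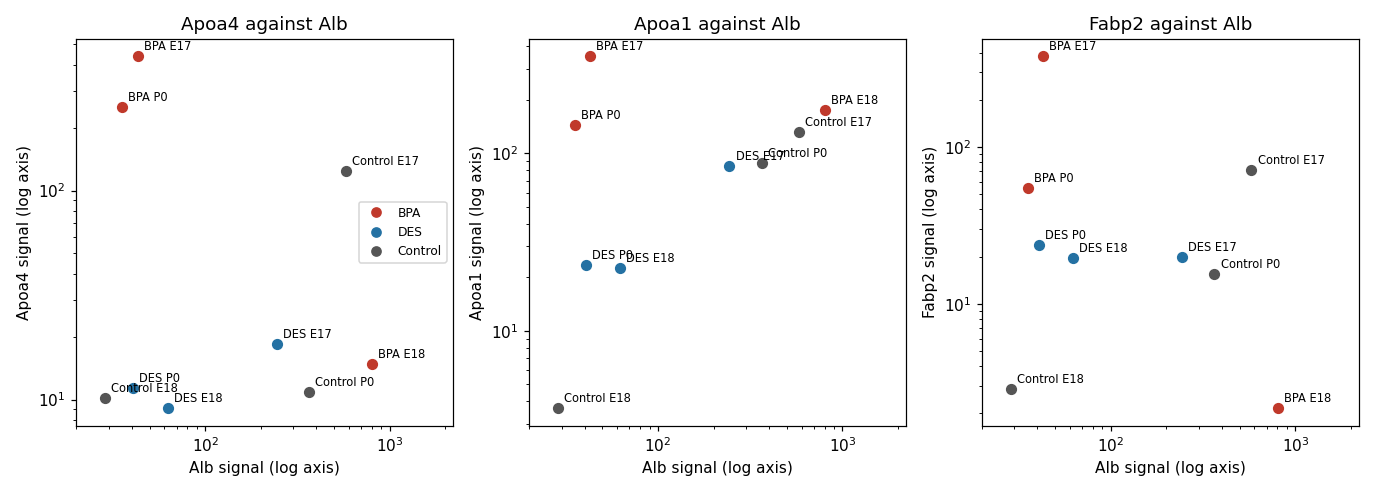
Signals of Apoa4, Apoa1 and Fabp2 (vertical, log axis) against Alb (horizontal, log axis), 1 point per array, coloured by agent. Apoa4 is bright on BPA E17 and BPA P0, where Alb reads 43.0 and 35.5, and dim on BPA E18, where Alb reads 802. On Control E17 both Apoa4 (124) and Alb are bright, and on Control E18 both are dim. Apoa1 reads 143 or more on each BPA array, and Fabp2 is lowest on BPA E18.

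The question of an effect of each agent was put to the genes bright enough to test. Only Apoa1 and Apoc3 passed the filter on low signals, a mean log2 level at the 40th percentile (signal 41.2). A gene can pass it through the few arrays where it is bright. By the DES and Control arrays alone both genes had a mean log2 level under that cut, so both passed through their BPA readings. Their BPA contrast is therefore not independent of the filter and is given as a description. Apoa1 averaged 223 ± 112 under BPA, against 74.4 ± 64.9 under vehicle, and Apoc3 averaged 95.5 ± 43.2 under BPA, against 41.7 ± 25.1 under vehicle (SD over the arrays of 3 ages). The log2 difference, BPA minus Control, was 2.12 ± 0.57 (SE; limma adjusted p = 0.363) for Apoa1 and 1.17 ± 0.28 (limma adjusted p = 0.336) for Apoc3. Neither passed the threshold of 0.05: 0 of 2 tested genes of the list were called, where 0.0149% of 13400 genes were. Unadjusted, both had p under 0.05, as had 1111 of all tested genes. For Apoa1 the size of the difference leaned on the Control E18 array, without which it was 1.11 ± 0.28 (limma adjusted p = 0.852). The SE fell with it, and the unadjusted limma p was 0.0032 without that array and 0.0039 with it.

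With the intensities left as deposited, without normalization between arrays, Apoa1 passed, at 1.89 ± 0.38 (limma adjusted p = 0.00506). In that setting 63 genes were called for BPA, against 2 after quantile normalization, and the BPA P0 array kept its low overall level. By age, Apoa1 on BPA minus Control differed by 1.38, 4.31 and 0.67 at E17, E18 and P0 on the log2(signal + 5.46) scale, which understates differences of dim readings. Those of Apoc3 were 1.04, 1.64 and 0.83. By these probe sets both genes were higher on the BPA array at each of the 3 ages, but another Apoa1 probe set differed by -0.33 at P0. For Apoa4 the differences were 1.77, 0.37 and 3.97, for Prap1 3.10, 0.35 and 0.42, for Fabp2 2.33, -0.13 and 1.51, and for Fabp1 1.84, 0.37 and -0.15. The second Fabp1 probe set gave 1.94, 1.94 and 1.40, so the sign at P0 depended on the probe set. With 1 array per agent and age, single-age differences have no replicate check. When all 9 genes were fitted without the filter, the smallest limma adjusted p among them was 0.452 for BPA against Control.

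DES was set against Control in the same fit. Apoa1 averaged 43.6 ± 35.8 on the DES arrays, against 74.4 ± 64.9 on the Control arrays, a log2 difference of -0.23 ± 0.57 (limma adjusted p = 0.963). Apoc3 averaged 39.1 ± 7.10 on the DES arrays, against 41.7 ± 25.1 on the Control arrays, a difference of 0.06 ± 0.28 (limma adjusted p = 0.980). Again 0 of the 2 were called, where 0% of 13400 genes were and 853 had an unadjusted p under 0.05. Single ages pointed in both directions by the brightest Apoa1 probe set, which differed by -0.60, 1.62 and -1.71 at E17, E18 and P0. The value depended on the probe set. By the other Apoa1 probe sets the mean difference over the ages was -1.24, -0.91 and -1.47. The probe set with -0.91 was lower on the DES array at each age. Apoa4 differed most at E17, by -2.44, with -0.10 and 0.04 at the later ages, and Fabp2 had -1.60, 1.59 and 0.48. None of the 6 brighter genes reached 100 on a DES array. Both contrasts use the same Control arrays, so their values are not independent.

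Age was compared over the 3 agents. Apoa1 averaged 67.2 ± 94.1 at E18 and 85.1 ± 60.1 at P0, against 189 ± 142 at E17 (SD, n = 3 arrays). The log2 difference was -2.19 ± 0.57 for E18 minus E17 (limma adjusted p = 0.948) and -1.15 ± 0.57 for P0 minus E17 (limma adjusted p = 0.303). Apoc3 differed by -1.04 ± 0.28 (limma adjusted p = 0.964) and -0.66 ± 0.28 (limma adjusted p = 0.236). The 2 genes were called in neither contrast, where 0% of genes were called for E18 and 0.619% for P0 (0.463% higher and 0.157% lower). Unadjusted, both were under 0.05 for E18 and 1 of them for P0, beside 428 and 2572 of all tested genes. With the intensities as deposited, Apoa1 passed in both, at -2.34 ± 0.38 (limma adjusted p = 0.00114) for E18 and -1.45 ± 0.38 (limma adjusted p = 0.0202) for P0. Without the Control E18 array, after normalization, the E18 difference of Apoa1 was -1.18 ± 0.28. Within each agent, E17 had the highest Apoa1 and Apoc3 reading of the 3 ages. Apoa4 was likewise highest at E17 in each agent, and Fabp2 in BPA and Control but not in DES.

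Other genes of gut epithelium were read from 5 further lists, of transcription factors, brush border and adhesion genes, lipid uptake genes, secretory cell genes and colon genes. Of their 60 genes, 55 were on the array, 30 were tested and 22 reached 100 on any array. For 11 of the 55 (20.0%) BPA E17 was the highest array, as it was for 9.04% of all genes. For BPA minus Control, 21 of the 30 tested lay above 0 with a median of 0.14, where the median of all tested genes was 0.01, and 0 were called, where 0.0149% of all tested genes were (5 unadjusted). The DES contrast had 14 of 30 above 0 and a median of -0.03, with 0 called, as of all genes (3 unadjusted). Of the ages, E18 minus E17 had 0 called, as of all genes (4 unadjusted). P0 minus E17 had 1 of 30 called, where 0.619% of all genes were (6 unadjusted). The called gene was Cd36, a fatty acid transporter also of muscle and vessel cells. Cd36 was higher at P0 by 0.89 ± 0.13 (limma adjusted p = 0.0233). Its call was lost in 7 of 15 alternative settings, among them the intensities as deposited, at 0.59 ± 0.22 (limma adjusted p = 0.103).

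Some gut genes outside the 9, named here after their values were seen, read highest on the BPA E17 and BPA P0 arrays, as Apoa4 did, in a different order. Rbp2, the cellular retinol-binding protein of enterocytes, read 52.7, 8.54 and 104 on the BPA arrays at E17, E18 and P0, 24.1, 13.3 and 5.37 on the DES arrays, and 30.0, 8.82 and 8.03 on the Control arrays. Its r with Apoa4 was 0.90 (rho = 0.70) and with Fabp2 0.71, and its highest array was BPA P0. Lct, the lactase of the suckling gut, read 89.4, 35.3 and 75.8 on the BPA arrays, 23.0, 33.9 and 24.5 on the DES arrays, and 51.7, 25.2 and 53.1 on the Control arrays, with r = 0.85 to Apoa4 (rho = 0.53). Rbp2 and Lct were both higher on BPA E17 and BPA P0 than on any other array. Mttp, which loads lipid onto apolipoprotein B, read 102, 59.1 and 115 under BPA, against 37.3 to 66.7 under vehicle. Apob itself, the structural protein of those particles, stayed at 24.8 to 50.3 on all arrays, and the intestinal and hepatic factor gene Hnf4a at 36.4 to 70.4. The gut lists as wholes did not share 1 course. Summed signals of the brush border and of the lipid uptake genes were higher on BPA E17 and BPA P0 than elsewhere. The sum of the secretory cell genes was lowest on BPA P0, at 1125. The colon sum was 1298 on BPA P0 and 1300 on Control P0, but it was mostly Hoxd13, which the urogenital sinus also expresses. The transcription factors summed to 2054 on BPA P0, within 1855 to 2236 over all arrays.

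**Figure D4:**
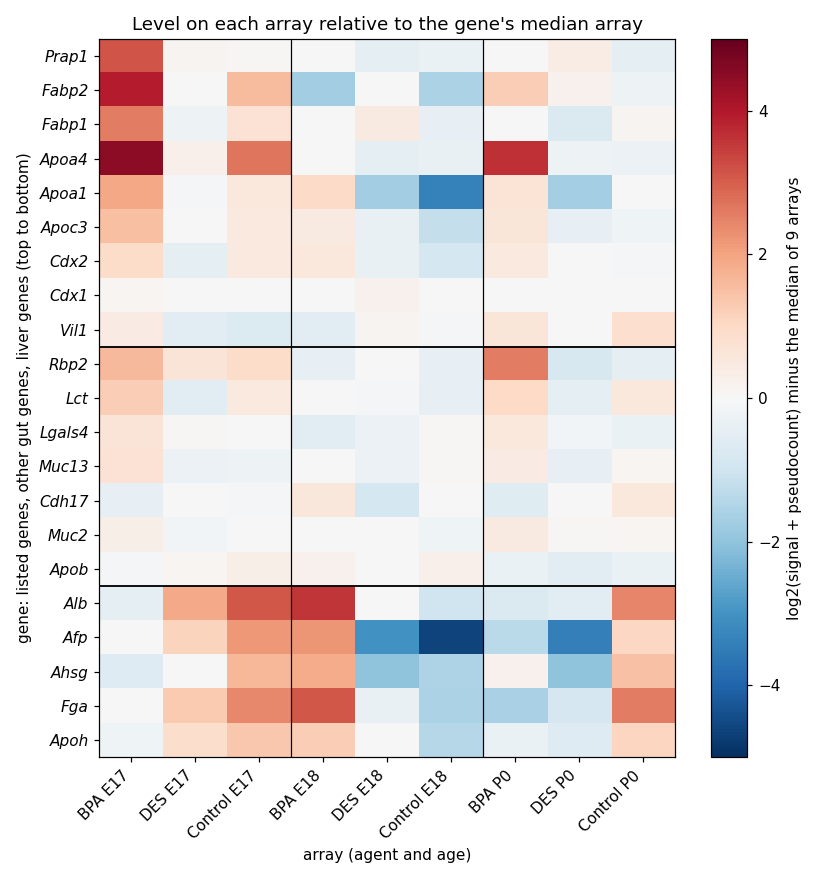
Level of each gene on each array relative to its median over the 9 arrays, as log2(signal + 5.46), for the listed genes, other gut genes and liver genes from top to bottom. The BPA E17 column is high for Fabp2, Fabp1, Apoa1, Apoa4, Apoc3 and Prap1, whereas Alb and Afp are highest on BPA E18.

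Of the 13400 tested genes, those with the profile closest to each of the 6 brighter genes were taken by Pearson's r over the 9 arrays. For Fabp2 the closest were Baiap2l1, Gm11110 and Itpkb (0.93 each), and for Fabp1 Cps1 (0.94) and Itpkb (0.93). Clca4a, Hilpda and Fam169b stood closest to Apoa4 (0.93 each). Apoa1 was closest to Arhgap45 and Shc1 (0.93 each) and Apoc3 to Lrrfip1 (0.96) and Vcl (0.95), vinculin of focal adhesions. For Prap1 the closest were the heat shock genes Hspa1a (0.97) and Hspa1b (0.91). Itpkb, Otp, Vcl and Taf6l were each among the 5 closest of at least 2 of the genes. The mean of the 6 standardised profiles was closest to Tmem178 (0.95), Ccnjl (0.93) and Galnt3 (0.92), with Cps1 and Hspa1a at 0.90. Where 1 array lies far above the others, such values can rest largely on that array, and they describe no shared role.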

How the data were processed

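Total RNA of mouse urogenital sinus was measured on 9 single-colour Affymetrix arrays. The authors deposited linear intensities, made with MAS5 per the submitters' processing notes, and the sources used here give no scaling target. There were 45101 probe sets, 0 missing values and 0 identical pairs of arrays. Gene names came from the platform annotation, in which 34958 probe sets had 1 symbol, 932 several and 9211 none. Intensities were quantile-normalised with limma 3.58.1 in R 4.3.3 and transformed as log2(signal + 5.46), the 10th percentile of all values. Each gene was represented by its brightest probe set, and genes at or above the 40th percentile (log2 5.54) were tested, 13400 in all. Age and agent were factors in a linear model of the 9 arrays (lmFit, eBayes with trend; 4 residual and 6.18 prior degrees of freedom). P-values were adjusted by Benjamini-Hochberg over all tested genes in each of 4 comparisons, at 0.05, and the fit was tested on simulated data. An agent's arrays at 3 ages were its only repeats, and the labels name no separate animals. The p-values therefore measure only the spread between arrays that is left after age and agent. That spread holds any change of an agent's effect with age, and some of it may be technical. The number of arrays limits precision.

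The listed genes, the marker lists and the tests were chosen with earlier results of these arrays known. Named were every listed gene, the tested genes most correlated with the brighter ones (5 for each, 10 for their mean profile), the brightest genes of marker lists, and genes they were set against. Alternatives changed the scaling, filter, pseudocount, probe set rule, model terms and arrays. Promoter motifs were counted in the RefSeq table of GRCm38.p6, and Apoc3 and Cdx1 were named only.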

Additional observations from a re-analysis of the deposited data

How the results depend on the processing

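With 3 arrays an agent, small differences cannot be seen, and 7 of the 9 genes were below the filter. Genes called for BPA minus Control numbered 2 in the fit described, 0 with every probe set as a feature, 0 without the replicate block, 0 without the filter and 63 with the values as deposited, and 0 to 20 when each array was left out in turn (20 without Control E17, 12 without BPA E17, 7 without DES E17, 1 without DES E18, 0 without Control E18, Control P0 or BPA P0). For P0 minus E17 the 83 calls became 30, 27, 8 and 723 in the same settings (the agent term dropped in place of the block) and 6 to 1157 with an array left out (1157 without DES P0, 57 or fewer without any other array). For DES minus Control the values as deposited gave 1 call and leaving out an array 0 to 0. For E18 minus E17 they gave 8 and 0 to 1. A common trimmed mean gave 2, 0, 0 and 75 calls for BPA, DES, E18 and P0, and a pseudocount of 16 gave 2, 0, 0 and 82.

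The Apoa1 difference for BPA ranged from 1.11 to 2.85 with an array left out (smallest limma adjusted p 0.332), and that of Apoc3 from 0.86 to 1.34 (0.318). The DES difference ranged from -1.24 to 0.51 for Apoa1 and from -0.25 to 0.30 for Apoc3. That of Apoa1 turned positive without Control replicate 1 (E17; 0.05), Control replicate 3 (P0; 0.51) or DES replicate 3 (0.15), and that of Apoc3 turned negative without Control replicate 2 (E18; -0.25) or DES replicate 2 (-0.21). The correlation of Apoa1 with Apoa4 became -0.43 with age and agent means removed. That of Apoa4 with Alb became 0.53 without the 2 arrays farthest from the median and 0.011 without BPA E17, and that of Fabp2 with Alb became 0.38 without its 2 farthest. With age and agent means removed, r to Alb was -0.68 for Apoa4 and -0.62 for Fabp2. Leaving out BPA E17 was chosen after seeing the data. The causes were not tested. The replicate number of an array is its age, so the fit with age as a factor is the paired analysis. Without that block Apoa1 and Apoc3 had differences of 2.12 ± 0.86 and 1.17 ± 0.41 for BPA.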
